A study of Mus musculus with 26 samples.

Results

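The comparison set glioma cells that had lost Rbpj, the DNA-binding effector of Notch signalling, against glioma cells that had lost Notch1, taken as the main receptor upstream of it. The libraries were chosen by their labelled genotype: 4 libraries labelled Rbpj-/- and 6 labelled Notch1-/-, which is 10 of the 26 libraries of the series. All were RNA sequencing libraries of GFP-positive cells that were dissected and sorted out of early mouse gliomas. The tumours were PDGF-driven and labelled Trp53 ko, in the 6 control libraries with intact Notch signalling as well. Rbpj-/- libraries carried wild-type Notch1 and Notch2 per the labels, and Notch1-/- libraries carried wild-type Notch2 and Rbpj. GFP came from a Rosa reporter that Cre recombinase switches on, so the sort selected cells with a history of Cre activity. Neither the source of Cre and of PDGF nor the deleted exons, the strain or the age of the mice is stated in the labels. Control libraries are described below as levels only, although they entered the fit that estimated the spread of each gene.

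Notch receptors sit on the cell surface and are cut when a ligand of the Delta or Jagged family on a neighbouring cell binds them. The released intracellular part enters the nucleus and joins Rbpj and a Mastermind co-activator on DNA, which switches on targets such as the Hes and Hey repressors. Without that part, Rbpj can hold the same sites in complexes with co-repressors, so loss of the effector and loss of a receptor are not the same intervention. In the brain the pathway is best known for keeping neural stem cells from differentiating and for favouring astrocytes over neurons and oligodendrocytes.

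Rbpj binds DNA at sites around the core letters TGGGAA, read on either strand. The promoters of 3 Notch targets whose values are given below are shown because they differ in how many such cores lie close to the start, with the core in capitals (TTCCCA is the core on the other strand). Each runs 250 bases up to the transcription start, on the strand of the gene, and comes from the RefSeq promoter table of GRCm38.p6. The windows are chr4:154960673-154960922 on the plus strand for Hes5, chr10:30842784-30843033 on the minus strand for Hey2 and chr2:25180508-25180757 on the plus strand for Nrarp.
Hes5: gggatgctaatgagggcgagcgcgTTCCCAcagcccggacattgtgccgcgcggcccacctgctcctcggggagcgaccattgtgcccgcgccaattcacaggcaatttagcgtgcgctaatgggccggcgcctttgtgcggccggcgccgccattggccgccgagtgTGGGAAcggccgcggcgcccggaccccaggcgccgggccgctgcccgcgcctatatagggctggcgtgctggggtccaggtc
Hey2: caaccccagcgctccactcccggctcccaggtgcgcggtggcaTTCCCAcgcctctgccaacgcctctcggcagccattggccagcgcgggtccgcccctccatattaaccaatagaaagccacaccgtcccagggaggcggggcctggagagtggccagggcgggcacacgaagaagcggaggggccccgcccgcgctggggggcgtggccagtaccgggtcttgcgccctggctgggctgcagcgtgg
Nrarp: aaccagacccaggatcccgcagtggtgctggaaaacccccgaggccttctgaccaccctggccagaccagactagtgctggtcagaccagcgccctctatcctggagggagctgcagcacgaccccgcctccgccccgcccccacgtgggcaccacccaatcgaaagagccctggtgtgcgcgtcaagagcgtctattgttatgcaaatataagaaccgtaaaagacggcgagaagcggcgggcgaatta
Hes5 held 2 matches, which began 226 and 82 bases before the start and lie on opposite strands. Hey2 held 1 match, 207 bases before the start, and Nrarp held 0 in this window. Of all 32851 windows in the table, 21.6% held TGGGAA on either strand. A match is a description of letters and not a binding site.

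Total counts per library were 30868828 to 44302365 in Rbpj-/-, 31593287 to 42378306 in Notch1-/- and 37613009 to 46703709 in control, and 15617 genes had enough counts to be tested. Levels below are in CPM, counts scaled to a fixed TMM-adjusted library total, and a log2 fold change is Rbpj-/- over Notch1-/-. After ± stands the standard error for a log2 fold change and the SD for a level. Whether replicates are separate animals is not stated, so the p-values speak only of the spread among libraries, which may be technical. That spread was estimated from all 26 libraries of the series. In bulk samples fewer cells of a type and less RNA per cell cannot be told apart. Correlations of log2 CPM across genes were 0.933 to 0.961 among Rbpj-/- libraries, 0.900 to 0.983 among Notch1-/- libraries and 0.886 to 0.980 between the groups. On principal components of the 10 libraries, which held 37.2% and 19.3% of the variance, Notch1-/- replicate 2 lay at the far end of the first and Rbpj-/- replicate 1 at the far end of the second. Xist, the RNA of the inactive X chromosome, was at 3465 CPM in Rbpj-/- replicate 2 and at most 4.81 CPM in the other 9, and Ddx3y of the Y chromosome was at 0 CPM in it and 24.3 to 161 CPM in the other 9. As a check of the labelled glioma cells, the oligodendrocyte precursor genes, which mark the usual cell state of PDGF-driven glioma, had mean log2 CPM of 8.58 to 9.00 in Rbpj-/-, 8.43 to 9.19 in Notch1-/- and 8.75 to 9.09 in control.

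The deleted genes were read first. Rbpj, on chromosome 5 from 53555779 to 53657445 (GRCm38.p6), was measured at 20.4, 35.0, 43.7 and 52.0 CPM in Rbpj-/- replicates 1 to 4, compared with a lowest, median and highest of 54.3, 68.6 and 97.2 CPM in Notch1-/-. Every Rbpj-/- library lay below every Notch1-/- library, but none was near 0. Rbpj fell in Rbpj-/- (log2 fold change -0.91 ± 0.20, adjusted p = 0.0478). That call was at the edge of the threshold and ended without Rbpj-/- replicates 1 (0.180), 2 (0.147) and 3 (0.0501) and without Notch1-/- replicates 1 (0.102), 2 (0.106), 3 (0.0661), 4 (0.0824) and 6 (0.0863). It also ended with the size factors of DESeq2 (0.0511), with no filter (0.0580), with voom (0.0818) and with only the 10 libraries in the fit (0.757).

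Notch1 (chromosome 2) had 201, 260, 117 and 203 CPM in Rbpj-/- replicates 1 to 4, compared with 88.2, 142 and 214 CPM at the lowest, median and highest Notch1-/- library, and the groups overlapped (0.44 ± 0.27, adjusted p = 0.591). Notch1 levels thus did not check the label Notch1-/-: whole-gene counts need not show the loss of a few exons, and genotype names here mean the labels. The other receptor of the series, Notch2, stood at 16.0 ± 2.07 CPM in Rbpj-/- (n = 4) and 14.9 ± 2.40 CPM in Notch1-/- (n = 6), a log2 fold change of 0.10 ± 0.16 (adjusted p = 0.824). Trp53, deleted in every group, stood at 13.6 ± 3.07 CPM in Rbpj-/- and 12.7 ± 1.67 CPM in Notch1-/- (0.09 ± 0.17).

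The transcriptomes of the 2 genotypes differed in few genes beyond the spread between libraries. With edgeR, 41 of 15617 genes passed (0.263%), of which 19 were higher in Rbpj-/- (0.122%) and 22 lower (0.141%). These were 36 distinct sets of counts, since several near-identical gene copies share the same counts in every library. For 38 of the 41 the 4 Rbpj-/- and 6 Notch1-/- libraries did not overlap, which was so for 1.10% of all genes. The 41 were picked by a test on these same libraries, so this is no separate support. The median size of a log2 fold change over all genes was 0.224. A log2 fold change of more than 1 in size was estimated for 919 genes, and 34 of those passed.

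The count of genes turned on single libraries, as the plot of counts with 1 library left out shows. It was 7 without Rbpj-/- replicate 1, 12 without replicate 2, 58 without replicate 3 and 13 without replicate 4. Without a Notch1-/- library it was 20, 31, 37, 24, 77 and 22 for replicates 1 to 6. Only 6 of the 41 genes passed in all 10 of these fits: the coding genes Hhipl2, Bpnt1 and Klhdc9, the non-coding AI506816 and the pseudogenes Pisd-ps3 and Pisd-ps1. DESeq2 called 132 genes (0.845%), the 41 among them, and voom 58 (0.371%), 30 of which were shared.

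**Figure D1:**
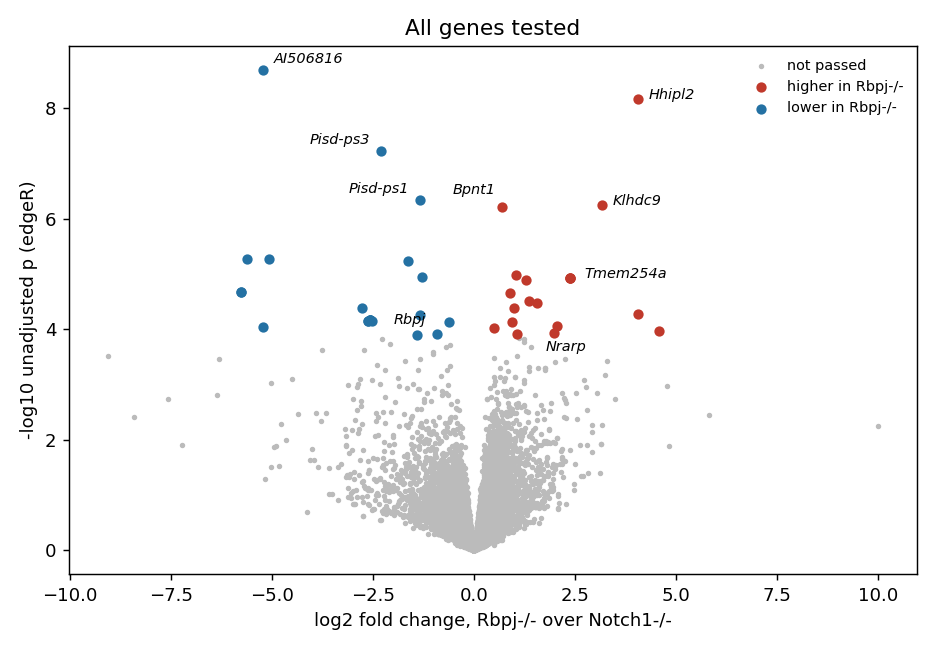
Log2 fold change of Rbpj-/- over Notch1-/- (x axis) against -log10 of the unadjusted edgeR p (y axis) for the 15617 genes tested. Red points are the 19 genes that passed and were higher in Rbpj-/-, blue points the 22 that passed and were lower, and grey points the rest, among them Nrarp.

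**Figure D2:**
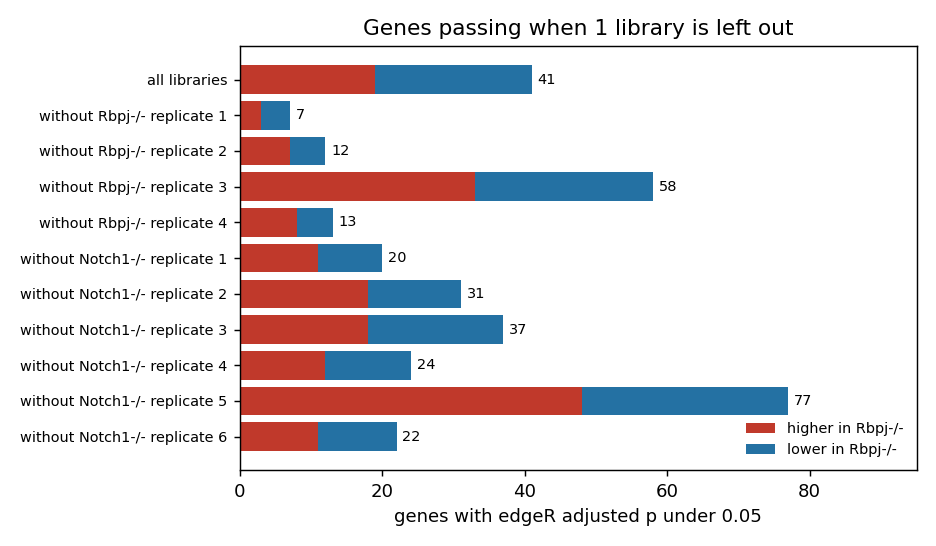
Number of genes with an edgeR adjusted p under 0.05 (x axis) with all libraries and with each of the 10 compared libraries left out (y axis), split into genes higher in Rbpj-/- (red) and lower (blue). The count ranges between 7 without Rbpj-/- replicate 1 and 77 without Notch1-/- replicate 5.

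No Notch target gene passed. With edgeR 0 of 12 targets passed, 5 had an unadjusted p under 0.05 (8.98% of all genes did), DESeq2 called 2 and voom 2. Their median log2 fold change was 0.42 and 9 of the 12 estimates were positive, against a median of 0.015 over all genes. Thus the estimates of most targets were higher with the effector lost than with the receptor lost, and the members with the smallest p are given singly.

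Nrarp, a feedback inhibitor that binds the Notch intracellular part, had 24.3, 19.0, 12.9 and 14.0 CPM in Rbpj-/- replicates 1 to 4. In Notch1-/- its lowest, median and highest levels were 1.78, 7.29 and 10.1 CPM, so every Rbpj-/- library lay above every Notch1-/- library. The control libraries spanned 16.4 to 35.2 CPM, which overlaps Rbpj-/- and lies wholly above Notch1-/-. The log2 fold change was 1.42 ± 0.33 and missed the threshold (adjusted p = 0.0668). It passed without Notch1-/- replicate 5 (0.0291) and with DESeq2 (0.00406), and not with voom (0.0516). With 1 library left out its adjusted p reached 0.362, and with only the 10 libraries in the fit it was 0.808.

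Hey1, a repressor of the Hey family that is also a Notch target in blood vessels, had 34.0, 26.1, 29.5 and 23.7 CPM in Rbpj-/- replicates 1 to 4. Notch1-/- libraries had 12.7, 13.0 and 27.5 CPM at the lowest, median and highest, and the highest, replicate 2, was the only one inside the Rbpj-/- range. In control Hey1 spanned 25.3 to 41.7 CPM, which overlaps both groups. The log2 fold change of Hey1 was 0.79 ± 0.20 (adjusted p = 0.142). It passed without Notch1-/- replicate 2 (0.0122), with DESeq2 (0.0438) and with voom (0.0339). With 1 library left out its adjusted p reached 0.561, and with only the 10 libraries in the fit it was 0.808. The family member Hey2 had 22.4, 28.9, 35.3 and 43.4 CPM in Rbpj-/- replicates 1 to 4, compared with 10.4, 15.7 and 40.1 CPM in Notch1-/-, again with replicate 2 the highest. In control Hey2 spanned 19.5 to 29.8 CPM, which also overlaps both groups. Hey2, whose promoter above holds 1 core, stood at 0.72 ± 0.27 (adjusted p = 0.432). It passed without Notch1-/- replicate 2 (0.0428) and with voom (0.00782), and not with DESeq2 (0.333). With 1 library left out its adjusted p reached 0.670, and with only the 10 libraries in the fit it was 0.808.

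Hes5, the Hes repressor most tied to Notch in neural progenitors and the one with 2 cores in the promoter above, was low in both groups. It had 1.80, 1.87, 0.489 and 1.09 CPM in Rbpj-/- replicates 1 to 4, compared with 0.312, 0.483 and 0.705 CPM at the lowest, median and highest Notch1-/- library. Control libraries spanned 2.27 to 7.97 CPM, above every library of both mutant groups, and Rbpj-/- replicate 3 was the only one of its group inside the Notch1-/- range. The log2 fold change of Hes5 was 1.35 ± 0.41 (adjusted p = 0.273).

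Hes1, the more widely expressed Hes repressor, had overlapping groups, with 15.4, 6.81, 8.05 and 4.15 CPM in Rbpj-/- replicates 1 to 4 and 1.09, 6.58 and 11.6 CPM at the lowest, median and highest Notch1-/- library. In control Hes1 spanned 11.9 to 21.3 CPM, above every Notch1-/- library and above every Rbpj-/- library but replicate 1. The log2 fold change of Hes1 was 0.42 ± 0.41, with a 95% interval of -0.39 to 1.22. Heyl was at 1.51 to 3.18 CPM in Rbpj-/- and, save for 18.7 CPM in replicate 2, at 0.696 to 2.47 CPM in Notch1-/- (-1.04 ± 0.64), an estimate whose sign turned when that library was left out (0.42) and with voom (0.05). The receptor Notch3, itself a target, stood at 1.11 ± 0.47 (adjusted p = 0.505). Dtx1, an E3 ubiquitin ligase of the pathway, stood at 0.43 ± 0.23 and its relative Dtx4 at -0.03 ± 0.11. The growth genes listed as targets, Myc (0.22 ± 0.23) and cyclin D1, Ccnd1 (0.08 ± 0.32, 95% interval -0.55 to 0.71), and the progenitor factor Sox9 (-0.44 ± 0.43) did not pass.

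Markers of blood vessels, where Nrarp, Hey1 and Hey2 are also Notch targets, also had mostly positive estimates. Of 15 endothelial genes 14 had positive estimates, with a median log2 fold change of 0.67, and 0 passed with edgeR, 0 with DESeq2 and 0 with voom, and 1 had an unadjusted p under 0.05. Their summed level was 123.8 to 192 CPM in Rbpj-/- and 77.9 to 161 CPM in Notch1-/-, against 247 to 533 CPM in control, and no member was at 0 in any of these libraries. As mean log2 CPM the endothelial genes had 1.65, 1.22, 1.78 and 1.99 in Rbpj-/- replicates 1 to 4 and 0.44, 0.33, -0.21, 0.54, 2.21 and 1.10 in Notch1-/- replicates 1 to 6. Notch1-/- replicate 5 was highest in endothelial genes and also in Nrarp within its group, and leaving it out brought 1 endothelial gene past the threshold. Hey1 and Hey2, however, were highest in Notch1-/- replicate 2, where the endothelial mean was 0.33. Within Rbpj-/-, Nrarp and Hey1 were highest in replicate 1 (endothelial mean 1.65) and Hey2 in replicate 4 (1.99). The part of vessel cells in the values of the target genes was not tested.

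**Figure D3:**
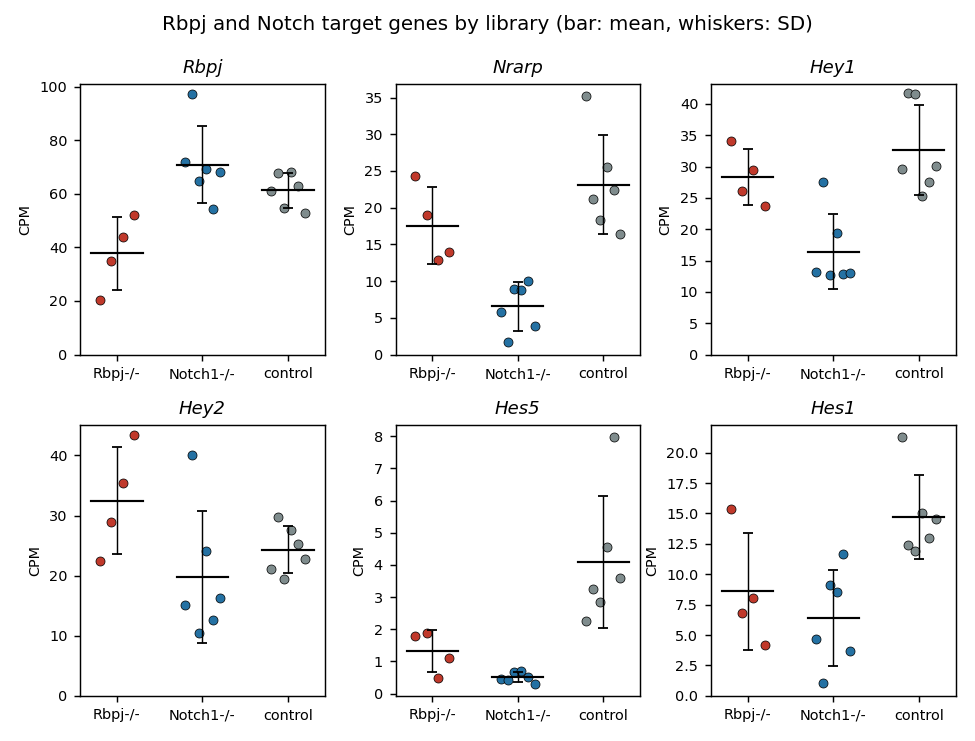
CPM (y axis, linear) of Rbpj and 5 Notch target genes in each Rbpj-/- (red, n = 4), Notch1-/- (blue, n = 6) and control (grey, n = 6) library, with the mean as a bar and the SD as whiskers. Nrarp lies between 12.9 and 24.3 CPM in Rbpj-/- and at or below 10.1 CPM in Notch1-/-, and Hes5 at or below 1.87 CPM in both mutant groups.

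Among receptors, ligands and other parts of the pathway, estimates went both ways. Of 34 components tested 1 fell, which was Rbpj itself, and 0 rose. Their median log2 fold change was 0.0043, with 17 estimates positive and 17 negative. DESeq2 called 1 and voom 0.

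Among ligands, Jag1 had 30.5, 56.1, 55.3 and 42.2 CPM in Rbpj-/- replicates 1 to 4, compared with 32.0, 75.4 and 96.5 CPM at the lowest, median and highest Notch1-/- library (-0.64 ± 0.32, adjusted p = 0.558). Dll1 (-0.08 ± 0.16) and Dll3 (0.16 ± 0.16), a Delta-like protein that acts inside the ligand-bearing cell, had 95% intervals of -0.39 to 0.24 and -0.15 to 0.48. Dlk1, a non-canonical ligand, spanned 2.03 to 57.2 CPM in Rbpj-/- and 0.520 to 30.5 CPM in Notch1-/- (0.91 ± 0.81). Among the receptors, Notch4 of blood vessels stood at 0.42 ± 0.56 and passed without Notch1-/- replicate 5 (1.82, adjusted p = 0.00994), where it was highest at 5.04 CPM.

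Mfng, the Manic fringe glycosyltransferase that tunes which ligands a receptor answers, had 3.28, 2.27, 2.03 and 2.90 CPM in Rbpj-/- replicates 1 to 4, compared with 0.419, 1.13 and 1.80 CPM at the lowest, median and highest Notch1-/- library. The groups did not overlap, and the log2 fold change of 1.30 ± 0.39 did not pass (adjusted p = 0.267). The other fringes, Lfng (0.32 ± 0.50) and Rfng (0.08 ± 0.17), overlapped. The proteases that cut the receptor were close to equal in estimate, with Adam10 at -0.25 ± 0.19, Adam17 at -0.07 ± 0.14 and the gamma-secretase part Ncstn at 0.16 ± 0.11. The co-activators Maml1 (0.08 ± 0.14), Maml2 (-0.32 ± 0.24) and Maml3 (-0.14 ± 0.25) and the Rbpj co-repressor Spen (0.12 ± 0.25) did not pass.

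Of the genes that passed, Rbpj was the only one in a Notch list. In some the Notch1-/- libraries left the control range, and in others the Rbpj-/- libraries did. Counted over the 36 distinct sets of counts, all Notch1-/- libraries lay above every control while Rbpj-/- overlapped control in 7, and all lay below in 6. All Rbpj-/- libraries lay above every control while Notch1-/- overlapped in 5, and all lay below in 4. Both groups lay below control in 2, and both overlapped it in 12. The share of all tested genes with such patterns is not given here, and 4 libraries clear the control range more easily than 6. These counts therefore describe the genes that passed and do not compare the genotypes. The gene examples that follow include several outside the rule that named genes (Klhdc9, Pisd-ps3, Pisd-ps1, Gm14296, Chrm3, Drc1, Abhd1, Apobec2 and Irx2), which were chosen after their values were seen. The span of 18 of the 41 genes overlaps another RefSeq gene, and where the counting did not use strand the reads of both cannot be told apart.

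Hhipl2 (chromosome 1, 183414463 to 183437053), a relative in sequence of the Hedgehog-interacting protein, held its call under every setting tried. It had 91.6, 86.6, 33.3 and 43.0 CPM in Rbpj-/- replicates 1 to 4, compared with 2.71, 3.45 and 5.31 CPM at the lowest, median and highest Notch1-/- library. Control libraries spanned 13.6 to 94.5 CPM, so that Rbpj-/- overlapped control and every Notch1-/- library lay below it. Hhipl2 rose in Rbpj-/- relative to Notch1-/- by a log2 fold change of 4.06 ± 0.47 (adjusted p = 5.46e-05, and below the threshold in all 17 alternatives).

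Bpnt1 (chromosome 1, 185329428 to 185357777), a phosphatase that clears a by-product of sulfation, had 140, 101, 87.8 and 115 CPM in Rbpj-/- replicates 1 to 4 and 62.0 to 75.4 CPM in Notch1-/-, with control at 82.0 to 90.1 CPM, above every Notch1-/- library. It rose by 0.71 ± 0.11 (adjusted p = 0.00160). Klhdc9, a kelch-domain gene on chromosome 1, also rose (3.18 ± 0.47, adjusted p = 0.00160), at the low levels of 0.515, 0.921, 0.566 and 0.232 CPM in Rbpj-/- and at most 0.109 CPM in Notch1-/-. Both passed with every library left out, but Bpnt1 did not pass with only the 10 libraries in the fit (0.151). Klhdc9 had too few counts to be tested in that fit or with the filter of 10 CPM in 4 libraries.

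Other genes on this side were lower in Notch1-/- than in any control. Tma7, whose yeast counterpart is associated with ribosomes, had 44.2, 27.1, 32.3 and 29.5 CPM in Rbpj-/- replicates 1 to 4 and 10.7 to 15.9 CPM in Notch1-/- (1.28 ± 0.24, adjusted p = 0.0134, or 0.105 without Rbpj-/- replicate 1). The asparaginase Asrgl1 had 389 to 458 CPM in Rbpj-/- and 227 to 369 CPM in Notch1-/-, with control at 400.5 to 454 CPM (0.51 ± 0.11, adjusted p = 0.0412). Its call ended without Rbpj-/- replicates 1 (0.176), 2 (0.116) and 4 (0.0899) and Notch1-/- replicates 1 (0.111), 3 (0.0842), 4 (0.0713) and 6 (0.114). It also ended with no filter (0.0855) and with only the 10 libraries in the fit (0.808). Abhd1, annotated as a transcribed pseudogene of the alpha/beta hydrolase family, had 6.53 to 12.2 CPM in Rbpj-/- and 2.03 to 5.37 CPM in Notch1-/-, with control at 8.71 to 14.0 CPM (1.37 ± 0.27, adjusted p = 0.0257). It passed in 5 of the 10 fits that left out a library, and not with only the 10 libraries in the fit (0.402).

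Of the genes where Notch1-/- lay above control, several are copies of one another. Pisd-ps3, a transcribed pseudogene of the phosphatidylserine decarboxylase Pisd, has no chromosome in the RefSeq table and had 34.7, 45.4, 50.3 and 58.3 CPM in Rbpj-/- replicates 1 to 4. Notch1-/- libraries had 164, 223 and 314 CPM at the lowest, median and highest, and control libraries 25.8 to 99.7 CPM. It fell in Rbpj-/- by 2.29 on the log2 scale (-2.29 ± 0.30, adjusted p = 3.17e-04, and below the threshold in all 17 alternatives). Pisd-ps1 on chromosome 11 had 12.4 to 20.7 CPM in Rbpj-/- and 32.6 to 55.3 CPM in Notch1-/-, with control at 13.2 to 22.6 CPM. It fell (-1.32 ± 0.19, adjusted p = 0.00160, or 0.0646 with only the 10 libraries in the fit). Reads can be shared between Pisd and its pseudogene copies, so which copy the difference belongs to is uncertain.

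Zinc-finger and predicted genes of 1 stretch of chromosome 2 formed a block. Between 175418037 and 176927813, a span of 1.51 Mb found after the values were seen, 9 of 14 tested genes passed, out of 9 of 1216 on the whole chromosome, and all 9 were lower in Rbpj-/-. Gm14296, a predicted gene of the stretch, had 0.187, 0.789, 0.669 and 0.928 CPM in Rbpj-/- replicates 1 to 4, compared with 24.1, 29.5 and 63.9 CPM at the lowest, median and highest Notch1-/- library. Control libraries had 0.211 to 1.01 CPM except replicate 1, which had 14.5 CPM. Gm14296 fell by 5.76 on the log2 scale (-5.76 ± 1.10, adjusted p = 0.0194), and its call ended without Rbpj-/- replicates 1, 2 and 4 (highest adjusted p 0.105).

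The zinc-finger gene Zfp966 (chromosome 2, 175918283 to 175931100) was at 0.913, 1.78, 2.68 and 2.44 CPM in Rbpj-/- replicates 1 to 4 and 7.75 to 17.5 CPM in Notch1-/-, with control at 0.627 to 4.53 CPM (-2.62 ± 0.55, adjusted p = 0.0356). It lost its call in 7 of the 10 fits without a library (highest adjusted p 0.176). Counts of Zfp966 and Zfp967 are identical in every library, as are those of Gm14296 and 2210418O10Rik and those of Gm14308, Gm4724, Gm14434 and the identifier 627914. Such copies cannot be told apart in these counts. Those of the stretch that passed lie 149 to 150.4 Mb from Notch1 on the same chromosome.

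Mettl17, which helps to assemble mitochondrial ribosomes, was also above control in Notch1-/-, with 14.3 to 17.3 CPM in Rbpj-/- and 21.5 to 27.6 CPM in Notch1-/- (-0.60 ± 0.13, adjusted p = 0.0356, lost in 7 of 10 fits without a library). In 2 further genes 1 Notch1-/- library lay inside the control range. Gdpd3, a phospholipase of lysolipids on chromosome 7, had 0.234 to 0.789 CPM in Rbpj-/-, and 0.348 CPM in Notch1-/- replicate 3 but 16.1 to 59.5 CPM in the other 5 (-5.61 ± 0.97, adjusted p = 0.0101, or 0.646 with voom), with control at 0.338 to 0.648 CPM. The muscarinic acetylcholine receptor Chrm3 had 0.116 to 0.632 CPM in Rbpj-/- and 0.875 to 22.4 CPM in Notch1-/-, with control at 0.362 to 2.06 CPM (-5.06 ± 0.87, adjusted p = 0.0101). The call of Gdpd3 ended without Rbpj-/- replicates 1 (0.0724) and 2 (0.0538) and that of Chrm3 without replicates 2 and 4 (up to 0.0584), and both ended with only the 10 libraries in the fit (0.151).

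On the other side, AI506816 left the control range in Rbpj-/-. This non-coding RNA gene lies on chromosome 5 from 23692261 to 23712667. Its levels were 1.19, 0.986, 0.900 and 2.00 CPM in Rbpj-/- replicates 1 to 4. In Notch1-/-, replicate 3 had 4.02 CPM and the other 5 had 32.2 to 74.0 CPM, and control libraries had 44.3 to 74.5 CPM. It fell by 5.21 on the log2 scale (-5.21 ± 0.57, adjusted p = 3.19e-05) and passed with each library left out and in 6 of the 7 other alternatives, the exception being voom (0.0542).

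Pop4, a protein subunit of RNase P and RNase MRP, had 25.0, 24.2, 31.4 and 21.2 CPM in Rbpj-/- replicates 1 to 4, compared with 43.0, 63.1 and 77.1 CPM at the lowest, median and highest Notch1-/- library. Control libraries were at 64.8 to 132 CPM, above every Rbpj-/- library and overlapping Notch1-/-. It fell (-1.27 ± 0.23, adjusted p = 0.0134) and lost its call without Rbpj-/- replicates 1 (0.0724), 2 (0.0650) and 4 (0.0730). With only the 10 libraries in the fit it was also lost (0.0646). Dpysl5, a collapsin response mediator protein of growing axons, had 1.02 to 1.91 CPM in Rbpj-/- and 3.95 to 5.91 CPM in Notch1-/-, with control at 3.08 to 6.73 CPM (-1.64 ± 0.28, adjusted p = 0.0101). Its call ended without Rbpj-/- replicates 1 (0.0657) and 4 (0.0584) and with only the 10 libraries in the fit (0.0646).

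L3hypdh, a dehydratase of hydroxyproline, rose (1.05 ± 0.19, adjusted p = 0.0134). It had 18.1 to 23.5 CPM in Rbpj-/-, 5.88 to 13.2 CPM in Notch1-/- and 7.40 to 10.7 CPM in control. Its call ended without Rbpj-/- replicates 1 (0.0724) and 2 (0.0538) and with only the 10 libraries in the fit (0.192).

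Kpna2, an importin that carries proteins into the nucleus and is high in dividing cells, had 41.5 to 65.3 CPM in Rbpj-/-, 13.3 to 39.7 CPM in Notch1-/- and 14.0 to 24.1 CPM in control (1.08 ± 0.24, adjusted p = 0.0478, lost in 8 of 10 fits without a library, up to 0.269 without Rbpj-/- replicate 1). Drc1, of the dynein regulatory complex of cilia, had 1.86 to 2.73 CPM in Rbpj-/- and 0.316 to 1.16 CPM in Notch1-/- (1.56 ± 0.31, adjusted p = 0.0258, lost in 5 of 10). Apobec2, of the cytidine deaminase family, had 1.30 to 3.23 CPM in Rbpj-/- and 0.158 to 0.629 CPM in Notch1-/- (2.06 ± 0.44, adjusted p = 0.0396, lost in 9 of 10).

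Chromosome 5, which carries Rbpj, held 7 of the 41 genes among 976 tested (0.717%, against 0.263% of all genes). Counted by gene, chromosome 2 held a larger share, 9 of 1216 tested (0.740%), and chromosome 14 held 4 of 563. Several of the 9 have the same counts as another of the 9, however. Those of chromosome 14 include the near-identical copies Tmem254a, Tmem254b and Tmem254c, which share reads. The 7 genes of chromosome 5 each have counts of their own. The shares of chromosomes 2 and 14 thus count copies more than once, and they do not rank these chromosomes against chromosome 5. Chromosomes 13 (3 of 570 tested) and 1 (4 of 932) also held more than the share of all genes, with counts of their own. The 7 genes of chromosome 5 include the deleted Rbpj itself. In Abhd1 it was Notch1-/-, and not Rbpj-/-, that left the control range. Whether the genes that passed gather on chromosome 5 or near Rbpj was not tested. Besides Rbpj, AI506816 lies 29.8 Mb, Drc1 23.2 Mb, Dpysl5 22.8 Mb and Abhd1 22.6 Mb from Rbpj towards the start of the chromosome, and the predicted gene Gm3716 lies 10.9 Mb and Rilpl2 70.8 Mb from it on the other side.

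Among genes where both groups overlapped control, the near-identical copies Tmem254a, Tmem254b and Tmem254c of chromosome 14, which encode a transmembrane protein and share reads, rose in Rbpj-/-. Tmem254a had 239, 163, 186 and 121 CPM in Rbpj-/- replicates 1 to 4, compared with 18.8, 24.9 and 80.6 CPM at the lowest, median and highest Notch1-/- library and 23.8 to 180 CPM in control (2.39 ± 0.44, adjusted p = 0.0134, or 0.0724 without Rbpj-/- replicate 1). The Iroquois homeobox genes Irx1 and Irx2, neighbours on chromosome 13, each lost the call in 8 of 10 fits without a library. Irx1 had 12.8, 5.13, 2.73 and 7.08 CPM in Rbpj-/- replicates 1 to 4 and 0.675 to 3.71 CPM in Notch1-/- (1.98 ± 0.43, adjusted p = 0.0478, or 0.375 without Rbpj-/- replicate 1). Irx2 had 8.87 CPM in Rbpj-/- replicate 1 and 0.329 to 0.603 CPM in the other 3, against 0.0233 to 0.356 CPM in Notch1-/- (4.59 ± 1.00, adjusted p = 0.0451). With 1 library left out the estimate of Irx2 ran from 2.23 to 5.47 and its edgeR adjusted p reached 0.99996. Hspa2, a chaperone best known from the testis (0.95 ± 0.20), and Rilpl2, a Rab-binding protein (0.99 ± 0.20), rose, and Sbsn, a secreted protein of the epidermis, fell (-1.41 ± 0.31), each with a call lost in 6 or more of 10 fits without a library.

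**Figure D4:**
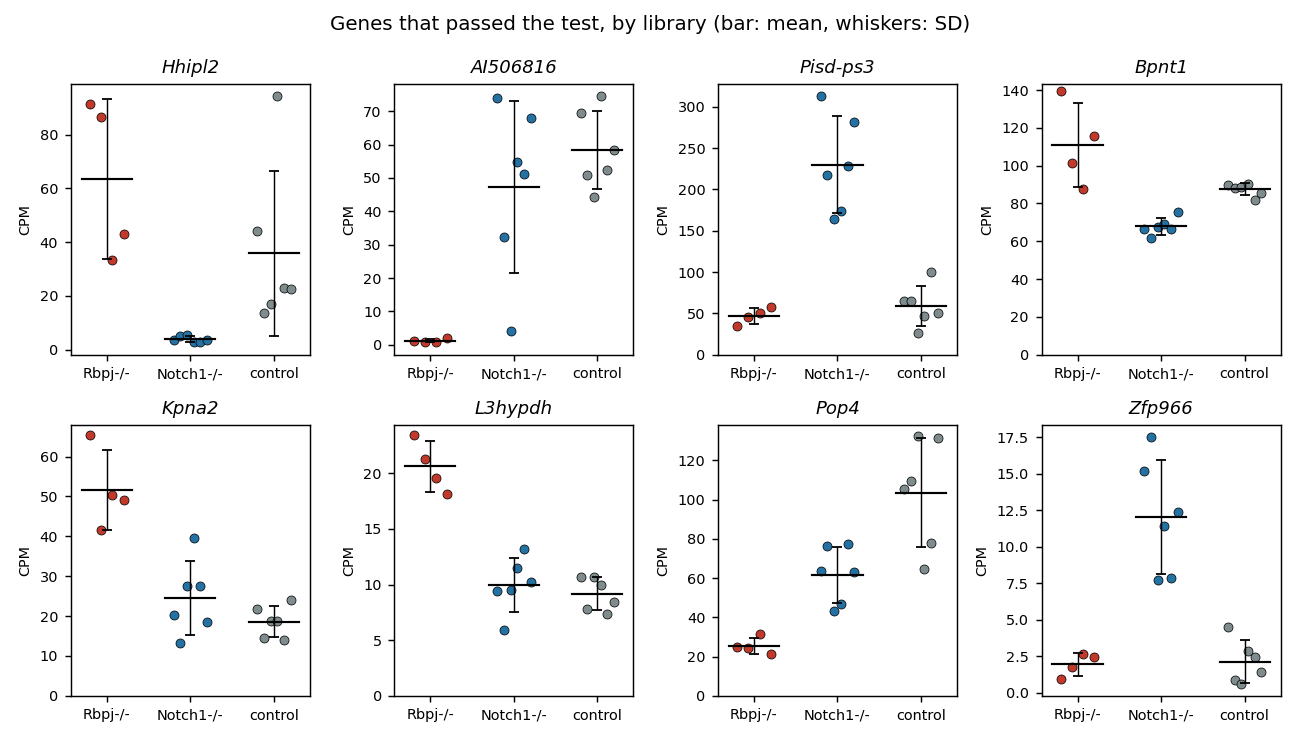
CPM (y axis, linear) of 8 genes that passed between Rbpj-/- (red, n = 4) and Notch1-/- (blue, n = 6), with control libraries (grey, n = 6) beside them, the mean as a bar and the SD as whiskers. Hhipl2 is at most 5.31 CPM in Notch1-/-, and AI506816 at most 2.00 CPM in Rbpj-/-.

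Gene lists of cell types, signalling and tumour states were read in the same fit. Of 795 distinct list genes tested, 1 passed with edgeR, which was Rbpj, 79 had an unadjusted p under 0.05 (9.94%, against 8.98% of all genes), DESeq2 called 5 and voom 2. The 5 of DESeq2 were Rbpj, Nrarp, Hey1, the myeloid lysozyme Lyz2 and the secreted guidance protein Reln, the last named after its value was seen. For 0 of the 44 lists did the mean log2 CPM separate the groups without overlap. Estimates below are therefore descriptions, set beside a median of 0.015 and 8124 positive and 7493 negative estimates over all genes.

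Antigen presentation and interferon genes varied widely within each genotype. Of 29 interferon gamma response genes 27 had negative estimates (median -2.13), and 0 passed with edgeR, 0 with DESeq2 and 0 with voom, and 2 had an unadjusted p under 0.05. Their mean log2 CPM was 2.81, 0.11, 1.97 and 5.41 in Rbpj-/- replicates 1 to 4 and 5.48, 7.66, 0.58, 3.25, 1.03 and 6.63 in Notch1-/- replicates 1 to 6. Low and high libraries thus occurred in both genotypes, and in control, where replicate 1 had 1.08 and the other 5 had 4.82 to 7.28.

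All 28 type I interferon response genes had negative estimates (median -1.24), and 0 passed with edgeR, 0 with DESeq2 and 0 with voom, and 2 had an unadjusted p under 0.05. Of 11 MHC class II genes 9 were negative (median -1.96) and of 23 MHC class I and peptide loading genes 19 (median -1.26). In both lists 0 passed with edgeR, DESeq2 and voom, and 1 and 0 had an unadjusted p under 0.05. H2-Ab1, a chain of MHC class II, ran from 1.58 to 84.0 CPM within Rbpj-/- and from 1.93 to 478 CPM within Notch1-/-.

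Markers of immune cells were lower in sum than in control or near 0. Microglia and macrophage genes summed to 158.5 to 319 CPM in Rbpj-/- and 76.5 to 309.5 CPM in Notch1-/-, against 411 to 1686 CPM in control, with no member at 0 in any of these libraries. As mean log2 CPM they had 2.72, 2.01, 2.12 and 2.62 in Rbpj-/- replicates 1 to 4, and 0.53 to 2.58 in Notch1-/-. Of 22 members 18 had positive estimates (median 0.36), and 0 passed with edgeR, 0 with DESeq2 and 0 with voom, and 5 had an unadjusted p under 0.05. T and NK cell genes summed to 0.437 to 2.41 CPM in Rbpj-/- and 0.558 to 9.71 CPM in Notch1-/-, with up to 6 and up to 5 of 8 members at 0 in a library. All 8 had negative estimates (median -1.83), and 0 passed with edgeR, 0 with DESeq2 and 0 with voom, and 2 had an unadjusted p under 0.05.

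Mural and fibroblast genes had 15 positive estimates of 16 (median 0.59, 0 passed with edgeR, 0 with DESeq2 and 0 with voom, and 3 had an unadjusted p under 0.05). They were low in Rbpj-/- replicate 2 (0.50) and high in Notch1-/- replicate 5 (3.79), against 2.73 to 3.19 in the other Rbpj-/- libraries and 0.22 to 1.23 in the other Notch1-/- libraries. Without Notch1-/- replicate 5, 2 of the 16 passed and their median was 2.23. That library moved the count of all genes to 77 as well, and what part cells of the vessel wall had in this was not tested.

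Neural cell types gave no gene past the threshold. Astrocyte genes, glia that Notch favours, had mean log2 CPM of 4.84 to 5.17 in Rbpj-/- and 4.47 to 4.97 in Notch1-/-, both wholly below the 5.74 to 6.29 of control (median log2 fold change 0.15, 0 of 22 passed with edgeR, 0 with DESeq2 and 0 with voom, and 3 had an unadjusted p under 0.05). Proneural and early neuronal genes, which Hes repressors hold down, had 3.68 to 3.94 in Rbpj-/- and 3.85 to 4.24 in Notch1-/-, against 3.70 to 3.84 in control (median -0.26, with 10 of 13 negative). Among them Dcx of migrating neurons stood at -0.27 ± 0.34 and Sox11 at -0.25 ± 0.30. Mature oligodendrocyte genes had 6.68 to 7.92 in Rbpj-/- and 6.21 to 8.97 in Notch1-/-, with Notch1-/- replicate 2 the highest. Synaptic adhesion genes had 25 of 28 negative estimates (median -0.20). In these last 3 lists the calls of edgeR, DESeq2 and voom numbered 0 each, as did genes with an unadjusted p under 0.05.

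Mitosis, mesenchymal glioma and hypoxia and glycolysis genes had mostly positive estimates and no gene past the threshold. Mitosis genes had mean log2 CPM of 6.96, 6.67, 6.91 and 7.08 in Rbpj-/- replicates 1 to 4 and 6.55 to 7.01 in 5 Notch1-/- libraries, but 4.78 in Notch1-/- replicate 2 (21 of 25 estimates positive, median 0.36, 0 passed with edgeR, 0 with DESeq2 and 0 with voom, and 3 had an unadjusted p under 0.05). The proliferation marker Mki67 ran from 258 to 924 CPM in Rbpj-/- and 164 to 811 CPM in Notch1-/- (0.05 ± 0.50).

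Mesenchymal glioma genes had 4.48, 2.20, 2.77 and 3.63 in Rbpj-/- replicates 1 to 4 and 1.42 to 3.09 in Notch1-/- (22 of 25 positive, median 0.84, 0 passed with edgeR, 0 with DESeq2 and 0 with voom, and 5 had an unadjusted p under 0.05). Hypoxia and glycolysis genes had 5.87, 5.06, 4.59 and 5.99 in Rbpj-/- and 4.51 to 5.58 in Notch1-/- (22 of 25 positive, median 0.48, 0 passed with edgeR, 0 with DESeq2 and 0 with voom, and 7 had an unadjusted p under 0.05). Ldha, the lactate dehydrogenase of glycolysis, had 1040.5, 311, 224 and 687 CPM in Rbpj-/- replicates 1 to 4 and 125.7 to 489 CPM in Notch1-/- (0.92 ± 0.38, adjusted p = 0.490). In both lists Rbpj-/- replicates 1 and 4 were the high ones and replicates 2 and 3 lay within the Notch1-/- range. The tumour-driving receptor Pdgfra was level, with 2461, 5086, 5984 and 4020 CPM in Rbpj-/- replicates 1 to 4 and 1998 to 5936 CPM in Notch1-/- (0.02 ± 0.29).

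**Figure D5:**
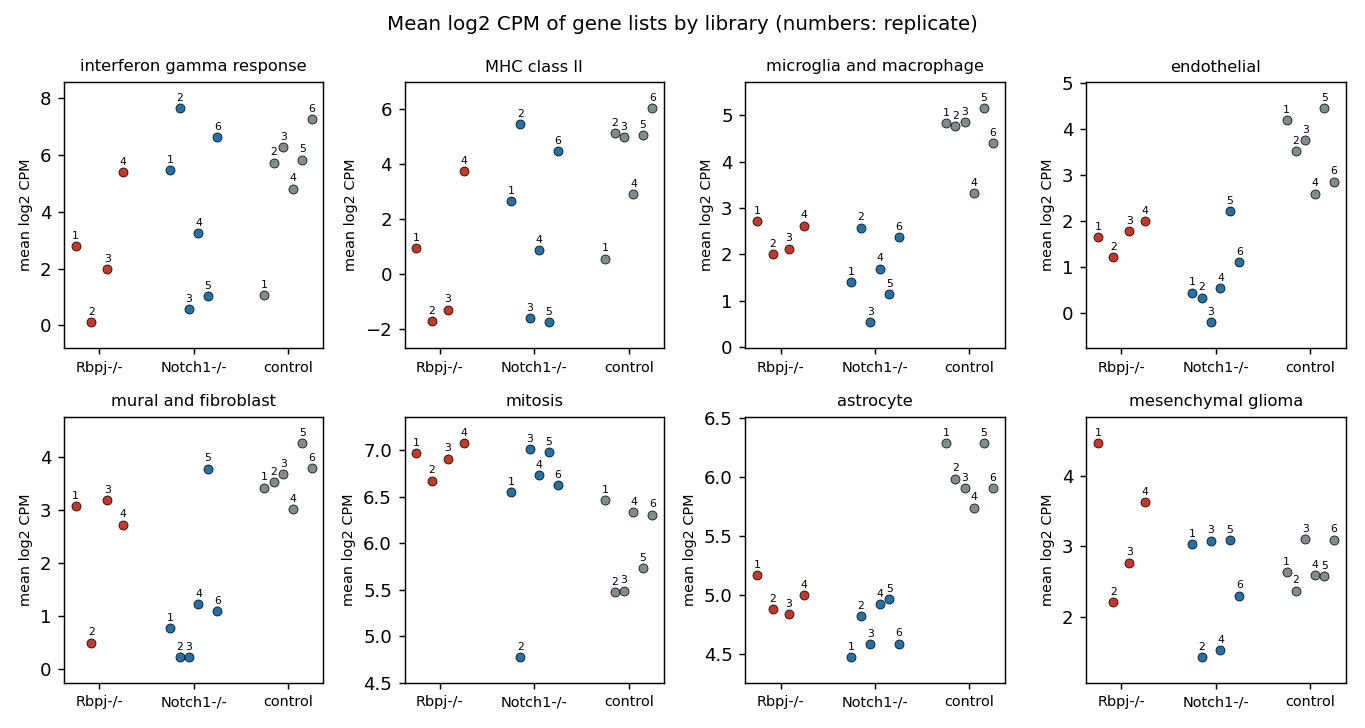
Mean log2 CPM (y axis) of 8 gene lists in each Rbpj-/- (red), Notch1-/- (blue) and control (grey) library, with the replicate number above each point. The Rbpj-/- and Notch1-/- points overlap in every panel, and in the astrocyte panel both lie below the 5.74 to 6.29 of control.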

How the data were processed

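RNA was sequenced from sorted glioma cells, with libraries from the TruSeq Stranded RNA LT kit, per the labels' protocols. Per the submitters' processing notes, the aligner was STAR and the genome build mm10. The authors deposited counts per gene under Entrez identifiers, as whole numbers without normalization. Which tool and annotation made the counts, and whether strand was used, is not given in the sources used here. The deposited gene length column was not used. Symbols and positions come from RefSeq GRCm38.p6, which matched 24374 of 24454 identifiers (the other 80 hold 0.348% of counts).

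All 26 libraries entered 1 edgeR 4.0.16 quasi-likelihood fit in R 4.3.3 with genotype as the only term, after filterByExpr and TMM, so that genotypes share an estimate of spread (common biological coefficient of variation 0.368). The contrast was Rbpj-/- minus Notch1-/-, with Benjamini-Hochberg adjustment over 15617 genes and a threshold of 0.05. The procedure was also run on simulated counts with a smaller spread than these data, the same for every gene. That run therefore does not measure error rates in these data. Log2 CPM used a prior count of 2. A list's value in a library is the mean log2 CPM of its tested members.

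Genes named were the 4 deleted genes, all tested members of the 2 Notch lists, the 15 largest changes each way among genes that passed whose mean log2 CPM was 1 or more (without predicted genes and pseudogenes), and up to 4 members of each other list or its 2 most expressed. This gave 146 genes, 22 of which passed. For the largest changes the rule also allowed at most 1 Rbpj-/- library not beyond the Notch1-/- median. That all 22 had 4 of 4 beyond it is therefore no separate support. The comparison, the 44 lists and the rule were chosen with earlier results of these data known. Single results of a few genes that passed are not reported here.

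Alternatives were DESeq2 1.42.0 size factors, no filter, 10 CPM in 4 libraries, the DESeq2 test, limma 3.58.1 voom (with quality weights), a block for replicate number, a fit on the 10 libraries alone, and each library left out.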

Additional observations from a re-analysis of the deposited data

Results flagged for a closer look

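Single libraries that stood apart from the rest of their group were looked for in 186 sets of values (genes in CPM, lists in mean log2 CPM, each within Rbpj-/-, Notch1-/- or control), and 15 were found. The nominal share by chance is about 5% of sets. The sets share the same libraries, and many of the genes were chosen because they passed. The 15 are therefore not weighed against that share.

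Within Rbpj-/-, replicate 1 was highest in Irx2 (8.87 CPM, next 0.603 CPM) and in Apobec2 (3.23 CPM, next 1.55 CPM). Rbpj-/- replicate 2 was highest in Drc1 (2.73 CPM, next 1.98 CPM) and lowest in mural and fibroblast genes (0.50, next 2.73).

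Within Notch1-/-, replicate 2 was highest in the Notch target Heyl (18.7 CPM, next 2.47 CPM) and in the chromosome 2 gene Gm14296 (63.9 CPM, next 37.6 CPM), and lowest in mitosis genes (4.78, next 6.55). Notch1-/- replicate 3 was highest in Tmem254a (80.6 CPM, next 31.6 CPM). Notch1-/- replicate 5 was highest in mural and fibroblast genes (3.79, next 1.23).

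Control libraries entered the fit that estimates the spread, but not the contrast. Among them, replicate 1 was highest in Hes1 (21.3 CPM, next 15.0 CPM) and Gm14296 (14.5 CPM, next 1.01 CPM). It was lowest in MHC class I and peptide loading genes (3.85, next 6.89). Control replicate 3 was highest in Trp53 (15.2 CPM, next 10.9 CPM). Control replicate 4 was lowest in mature oligodendrocyte genes (8.06, next 8.97) and highest in hypoxia and glycolysis genes (5.88, next 5.01).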

How the results depend on the processing

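The count of 41 genes was 39 with DESeq2 size factors, 31 with no filter, 31 with the stricter filter and 58 with voom. It was 132 with the DESeq2 test (59 higher and 73 lower in Rbpj-/-) and 10 with only the 10 compared libraries in the fit (3 and 7). Leaving out 1 library gave 7 to 77 genes. With the replicate number as a block it was 20 (10 and 10), all among the 41. Libraries of the same number did not deviate together (correlations of -0.37 to -0.07 over replicates 1 to 4), so the numbers are not taken as pairs. Of the 41 genes, 6 passed with each library left out, and Pisd-ps3 and Hhipl2 also in the 7 other alternatives. The cause of these shifts was not tested, save that the fit on 10 libraries estimates the spread from fewer samples. No scaling moved the median log2 fold change of all genes by over 0.1. With 4 against 6 libraries that vary this much, a lack of calls among low or variable genes, such as the interferon genes, does not show that levels were equal.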

Other observations

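Libraries of the other Notch genotypes, which entered the fit but not the contrast above, give further levels of the genes that differed. AI506816, at 0.900 to 2.00 CPM in Rbpj-/-, was at 2.55 to 3.51 CPM in the 5 Notch1-/-Notch2-/- libraries and at 17.4 to 53.8 CPM in the 5 Notch2-/- libraries. Pisd-ps3, at 164 to 314 CPM in Notch1-/-, was at 247 to 484 CPM in Notch1-/-Notch2-/- and 79.4 to 158 CPM in Notch2-/-. The chromosome 2 gene Gm14296 was at 16.3 to 47.3 CPM in Notch1-/-Notch2-/-, while Notch2-/- replicates 1 to 5 had 22.6, 1.22, 8.59, 28.3 and 24.1 CPM. Gdpd3, near 0 in control and Rbpj-/-, was at 0.606 CPM in Notch1-/-Notch2-/- replicate 3 and 13.0 to 19.3 CPM in the other 4, and at 1.68 to 10.2 CPM in Notch2-/-.

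The levels of further genes were as follows. Hhipl2, at 2.71 to 5.31 CPM in Notch1-/-, was at 21.4 to 58.3 CPM in Notch1-/-Notch2-/- and 18.7 to 59.7 CPM in Notch2-/-. Chrm3, at 0.875 to 22.4 CPM in Notch1-/-, was at 0.0546 to 0.341 CPM in Notch1-/-Notch2-/- and 0.356 to 2.23 CPM in Notch2-/-. L3hypdh, at 18.1 to 23.5 CPM in Rbpj-/- and 5.88 to 13.2 CPM in Notch1-/-, was at 8.03 to 12.8 CPM in Notch1-/-Notch2-/- and 8.69 to 13.7 CPM in Notch2-/-. The differences between these groups were not tested here.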
